A study of Mus musculus with 62 samples.

Results

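The genes described here encode the granule proteins of neutrophils. They are 10 of the 21951 protein-coding genes of the mouse annotation (GENCODE M21, mm10) and were chosen by function: 4 primary granule genes (Mpo, Elane, Prtn3 and Ctsg), 4 secondary granule genes (Ltf, Camp, Ngp and Lcn2), and S100a8 and S100a9, which encode cytosolic proteins and were placed in neither class. For each gene, every site listed in 14 tables of differing CUT&Tag sites was taken if it overlapped the gene body or the 20 kb on either side of it. This gave 553 of the 1743368 listed sites, found in 11 of the 14 tables. The windows of Prtn3 and Elane on chromosome 10 overlap each other, as do those of S100a8 and S100a9 on chromosome 3, and a site in both windows was counted once per class.

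Neutrophils store their antimicrobial proteins in granules that are filled in sequence as the cell matures. Primary (azurophil) granules form at the promyelocyte stage and hold myeloperoxidase (Mpo) and the serine proteases neutrophil elastase (Elane), proteinase 3 (Prtn3) and cathepsin G (Ctsg). Secondary (specific) granules form later and hold lactoferrin (Ltf), the cathelicidin precursor (Camp), neutrophilic granule protein (Ngp) and lipocalin 2 (Lcn2). S100a8 and S100a9 together form calprotectin, the main cytosolic protein of neutrophils. Pu.1, an ETS-family factor, and C/EBP factors are known regulators of this gene programme. Acetylation of H3K27 marks active promoters and enhancers, while H3K27me3 and H3K9me3 mark repressed chromatin. Daxx is the chaperone that deposits the histone variant H3.3 together with Atrx.

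CUT&Tag was performed on bone marrow haematopoietic stem and progenitor cells (HSPCs, Lin-/c-Kit+, enriched on magnetic columns) of C57BL/6 mice of 3 genotypes: Daxx +/+ Cre +/- (WT), Daxx F/F Cre +/- (Daxx-KO) and Daxx F/F with Pu.1 F/F, likewise Cre +/- (DKO). All groups, WT included, carried the interferon-inducible Mx1Cre transgene and time is counted in weeks after injection of poly(I:C) (w.p.i.). Mx1Cre acts in many blood and non-blood cells, and the Daxx line was made on C57BL/6N but crossed to C57BL/6J Cre and Pu.1 lines. At 3 and 24 w.p.i. each table set 2 Daxx-KO against 2 WT libraries, and at 8 w.p.i. 3 against 3, with DKO mice included. Antibodies shared mice: at 24 w.p.i. all 5 antibodies were used on the same 4 mice, and at 3 w.p.i. H3.3 and Pu.1 shared 3 numbered mice. The first WT library of H3.3 and of Pu.1 at 3 w.p.i. carries the word Wildtype in place of an animal number, unlike the other libraries. The tables used 54 of the 62 libraries of the series. DKO libraries of 24 w.p.i. were not analysed here.

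Values are the read counts of a site in 1 library, normalized by the authors, and only sites that passed the authors' own test are listed, so a gene without a listed site has no value. A site was called higher (lower) where every library of the first group lay above (below) every library of the second, and 541 of the 553 sites could be called. No p-value was computed, since the sites were listed for their difference in these same libraries, and an exact permutation test of 1 site cannot give less than 0.333 with 2 against 2 or 0.100 with 3 against 3 libraries. The mean number of reads per 600-bp window lay between 3.97 and 10.3 at 24 w.p.i., between 0.2 and 3.29 at 8 w.p.i. and between 1.21 and 33.78 at 3 w.p.i. The targeted gene followed the labels: over the floxed part of Daxx, H3K27ac was 24.2 and 13.6 in Daxx-KO against 105 and 65.5 in WT at 3 w.p.i., and 113 and 93.7 against 858 and 368 at 24 w.p.i.

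Since Pu.1 was one of the antibodies, the 250 bases before the RefSeq start of each gene were searched on both strands for GAGGAAGT and its core GAGGAA (letters bound by Pu.1), TTGCGCAA and TTGCNNAA (C/EBP) and CCAAT. All 10 genes had a RefSeq promoter (GRCm38.p6), and all 10 sequences equalled the genome. GAGGAAGT was found before Mpo, Elane, Prtn3 and S100a8, that is at 4 of the 10 genes, and in 2.44% of the 32851 RefSeq promoters of this length. GAGGAA, which lies inside GAGGAAGT, was found at 7 of the 10 genes and in 23.3% of all promoters, Ltf, Lcn2 and Ctsg being the others. TTGCNNAA was found before Ltf, Ngp, Lcn2 and S100a9 and in 9.56% of all promoters, CCAAT before Elane, Ltf and Ngp and in 33.8%, and TTGCGCAA at 0 of the 10 genes and in 0.164%. Camp held none of these letters. The promoters of the 5 genes whose GAGGAA lay inside a called Pu.1 site are shown 5′ to 3′ on the strand of the gene. Capitals mark each match to a searched motif, GAGGAA being read as TTCCTC on the other strand. They are Elane, + strand, chr10:79886062-79886311, with GAGGAAGT 85 bases before the start; Prtn3, + strand, chr10:79879417-79879666, with GAGGAAGT 95 bases before it; Ltf, + strand, chr9:111019042-111019291, with GAGGAA 157 bases before it; Lcn2, - strand, chr2:32387740-32387989, with GAGGAA 20 bases before it; and S100a8, + strand, chr3:90668821-90669070, with GAGGAAGT 172 bases before it. A match describes letters and shows no binding.
Elane: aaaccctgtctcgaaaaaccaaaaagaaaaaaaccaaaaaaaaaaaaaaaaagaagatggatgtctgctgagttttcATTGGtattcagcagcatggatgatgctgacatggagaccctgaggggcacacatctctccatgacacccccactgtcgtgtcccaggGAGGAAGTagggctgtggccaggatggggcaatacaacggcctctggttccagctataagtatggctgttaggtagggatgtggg
Prtn3: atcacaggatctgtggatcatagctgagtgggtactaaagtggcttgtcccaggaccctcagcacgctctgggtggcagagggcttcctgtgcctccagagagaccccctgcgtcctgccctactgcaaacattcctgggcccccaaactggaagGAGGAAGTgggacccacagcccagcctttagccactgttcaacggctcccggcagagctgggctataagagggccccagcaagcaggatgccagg
Ltf: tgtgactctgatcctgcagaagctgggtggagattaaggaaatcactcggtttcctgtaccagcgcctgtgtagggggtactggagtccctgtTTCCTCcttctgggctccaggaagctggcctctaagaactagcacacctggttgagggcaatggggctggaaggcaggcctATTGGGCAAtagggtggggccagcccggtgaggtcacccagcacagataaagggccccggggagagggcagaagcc
Lcn2: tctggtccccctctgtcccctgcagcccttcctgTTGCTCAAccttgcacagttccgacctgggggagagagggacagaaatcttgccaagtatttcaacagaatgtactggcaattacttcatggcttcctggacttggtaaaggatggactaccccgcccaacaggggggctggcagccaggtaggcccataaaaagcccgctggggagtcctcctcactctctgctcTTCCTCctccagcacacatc
S100a8: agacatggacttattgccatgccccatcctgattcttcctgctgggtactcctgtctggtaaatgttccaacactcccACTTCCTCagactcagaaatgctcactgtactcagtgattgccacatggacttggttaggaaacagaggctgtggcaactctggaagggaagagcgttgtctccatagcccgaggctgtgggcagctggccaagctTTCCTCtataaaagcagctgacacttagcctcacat

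H3K27ac at 24 w.p.i. was higher in Daxx-KO than in WT over the promoter of all 10 genes, and none had a promoter site called lower. A promoter site here overlaps the 1 kb on either side of an annotated transcription start. Among the 20807 protein-coding genes of the autosomes, 43.1% had a promoter site called higher and 35.3% one called lower. These shares include genes without a listed promoter site. Only 12848 of the coding genes had one, and 8967 of them had one called higher. The log2 ratio of the strongest promoter site (1 normalized count added to each mean) had a median of 0.94 over the 10 genes against 0.56 over all genes with such a site, and ran from 0.78 at Mpo to 1.32 at Elane, percentiles 67.7 and 88.2 of coding genes with such a site. Because a mixed HSPC fraction was profiled as a whole, more cells that carry a mark and more of the mark per cell cannot be told apart.

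Among the primary granule genes, the site over the start of Mpo (chr11:87792751-87794700) had 1642 and 2084 normalized counts in Daxx-KO against 836 and 892 in WT. That of Elane (chr10:79883901-79888050) had 1817 and 1894 against 689 and 793. That of Ctsg (chr14:56100501-56103350) had 2470 and 3186 against 1390 and 1482. In these 3 genes every Daxx-KO library lay well above both WT libraries, and the downstream Mpo promoter site had a smaller but separate difference, at 2704 and 3062 against 1812 and 1543. Prtn3 had the lowest site of the 10, with 354 and 389 against 188 and 239 (chr10:79879001-79880150), and again the groups did not overlap.

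The secondary granule genes had the same direction. The Ltf start (chr9:111018251-111020200) carried 1994 and 1983 normalized counts in Daxx-KO against 919 and 873 in WT, and the Camp start (chr9:109847951-109852000) 2665 and 2165 against 1097 and 1490. Lcn2 (chr2:32385651-32390200) had 4929 and 3776 against 1801 and 1743, the largest log2 ratio of this class at 1.30. Ngp stood apart by width: its promoter site (chr9:110412651-110420750) spanned 8100 bp, percentile 99.9 of coding genes, and held 6981 and 6737 against 2881 and 3440. Of the 10 genes only Prtn3, at 1150 bp, had a promoter site near the median width of 1000 bp over all coding genes with such a site, and the median of the 10 was 3725 bp. Per kb of site, the level in Daxx-KO was lowest at Prtn3 (308 to 339 normalized counts per kb) and highest at S100a8 (1204 to 1218), and in WT the corresponding genes stood at 163 to 208 and 638 to 684.

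**Figure D1:**
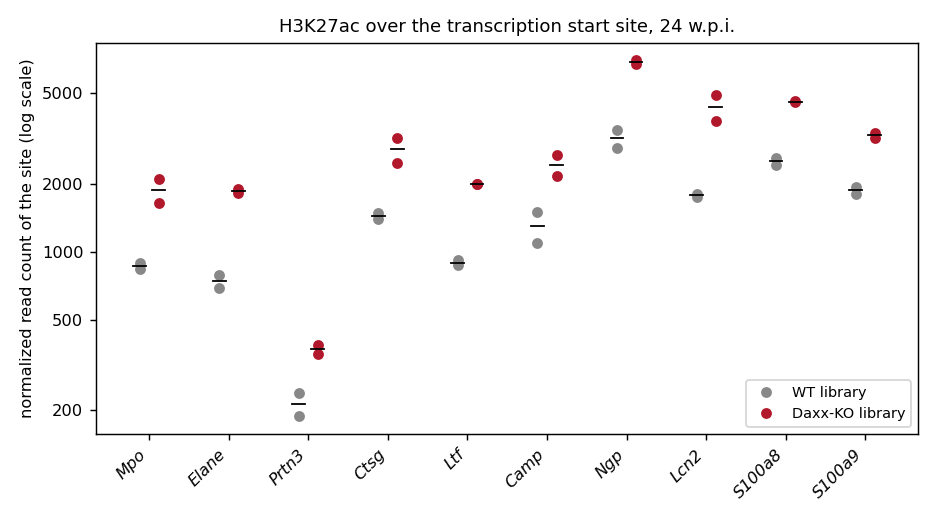
H3K27ac over the transcription start of the 10 genes at 24 w.p.i., as the normalized read count of the site (y axis, log scale) in each of 2 WT (grey) and 2 Daxx-KO (red) libraries, with a line at the mean of each pair. At every gene both Daxx-KO points lie above both WT points, from 354 and 389 against 188 and 239 at Prtn3 to 6981 and 6737 against 2881 and 3440 at Ngp.

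At S100a8 the start (chr3:90666951-90670750) had 4574 and 4628 normalized counts in Daxx-KO against 2424 and 2599 in WT, and at S100a9 (chr3:90693951-90697600) 3185 and 3350 against 1805 and 1922. The stretch between the outer ends of these neighbouring genes, 26744 bp long, held 9 sites called higher that covered 89.7% of it, with log2 ratios from 0.56 to 1.58. The largest ratio near S100a8 was upstream of the gene (chr3:90663501-90665050), at 1110 and 1004 against 242 and 309.

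Over all windows, 108 H3K27ac sites were called higher and 26 lower of the 139 listed at 24 w.p.i., where 41.3% of all listed sites were called higher and 56.0% lower. Promoters and gene bodies held 17 and 13 of the higher sites and 0 and 1 of the lower ones, and the flanks held 78 higher and 25 lower. The lower sites were unevenly spread. Downstream of Ctsg, towards and over the mast cell protease gene Mcpt8, H3K27ac was lower at every listed site from chr14:56082351 to chr14:56098250, the largest fall in that window being 27 and 29.3 normalized counts in Daxx-KO against 76.0 and 142 in WT (chr14:56096051-56097200), while the Ctsg gene body and promoter were higher. Within the Lcn2 window the largest change was likewise a fall, over the neighbouring gene Ciz1 (chr2:32373551-32374400), from 79.3 and 39.6 in WT to 10.5 and 5.85. Depth was 7.17 and 3.97 reads per window in Daxx-KO and 7.54 and 10.3 in WT. With libraries scaled by their mean number of reads per window in place of the authors' constant, the median log2 ratio of all H3K27ac sites moved up by 0.54 and that of every promoter site named here moved the same way, to between 1.34 at Mpo and 1.88 at Elane.

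Most of these genes also had H3K27ac differences listed at 3 w.p.i., at lower depth (1.33 to 2.26 reads per window). A promoter site was called higher at 7 of the 10 genes and lower at 1, Prtn3, which had both, whereas 9.18% of coding genes had a promoter site called higher and 26.2% one called lower. Of the 10 genes, 7 had a listed promoter site, as did 7001 coding genes, of which 1911 had one called higher. The Mpo start had 187 and 223 normalized counts in Daxx-KO against 112 and 131 in WT, and that of Ctsg 453 and 360 against 216 and 209. The Elane promoter site (chr10:79883651-79885700) had 298 and 180 against 78.4 and 97.1. In these 3 primary genes the groups did not overlap. Prtn3 was mixed: the site over its main start had 79.5 and 28.9 against 17.2 and 27.6, a narrow separation, and an adjoining site was lower, at 9.69 and 6.8 against 26.9 and 37.5.

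Secondary granule genes had low counts at 3 w.p.i. The Camp start had 64.9 and 60.3 normalized counts in Daxx-KO against 17.2 and 13.2 in WT, and the Lcn2 start 20.4 and 34.0 against 4.3 and 9.93. At Ltf the promoter site called higher lay at an internal start of a shorter transcript (chr9:111038701-111039750), at 28.1 and 37.4 against 3.22 and 6.62. Camp had the largest promoter log2 ratio at the principal start of a gene, at 1.97. Ngp, S100a8 and S100a9 had no listed H3K27ac promoter site at this time. In total 36 sites were called higher and 17 lower of 55 listed, against 39.4% and 58.2% of all listed sites. In primary gene windows 21 were higher and 4 lower, and in secondary gene windows 13 and 12.

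H3.3 at 3 w.p.i. was higher in Daxx-KO at 56 and lower at 11 of the 67 sites listed around the 10 genes, while 58.7% of all listed H3.3 sites were called higher and 39.7% lower. All 9 sites of Mpo, 13 of Elane and 15 of Prtn3 were higher, the last 2 counts sharing sites because their windows overlap. Most lay outside the granule genes: 45 of the 56 were in the flanks, and 35 of these overlapped another coding gene, such as Plppr3 and Ptbp1 upstream of Prtn3. The highest was over these 2 genes (chr10:79864451-79866550; singled out after its values were seen), with 362 and 270 normalized counts in Daxx-KO against 109 and 28.8 in WT. Within the Mpo gene the promoter site at an internal start (chr11:87795151-87796350) had 171 and 161 against 68.7 and 39.3. Among secondary genes the Lcn2 start had 110 and 95.1 against 49.1 and 21.

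The promoters of Ctsg and S100a8 went the other way. Ctsg (chr14:56102201-56103150) had 0 and 13.3 normalized counts of H3.3 in Daxx-KO against 61.7 and 49.8 in WT. S100a8 (chr3:90668651-90669800) had 14.2 and 47.2 against 105 and 212. Both pairs were clearly separate. Across coding genes a promoter site was called higher at 35.5% and lower at 12.0%, and among the 10 genes at 3 and at 2. The median log2 ratio of the strongest promoter site was 1.24 for the 5 of the 10 genes that had one and 1.38 for all genes. The largest H3.3 change within Ltf was also a fall, in an intron, from 45.6 and 47.2 to 0 and 5.16 (chr9:111032551-111033150). The 2 WT libraries differed in depth, at 22.88 (the one without an animal number) and 3.06 reads per window, with 9.43 and 11.27 in Daxx-KO. The lowest count above 0 at these genes in the shallow WT library was 2.62. Its part in the result was not tested.

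**Figure D2:**
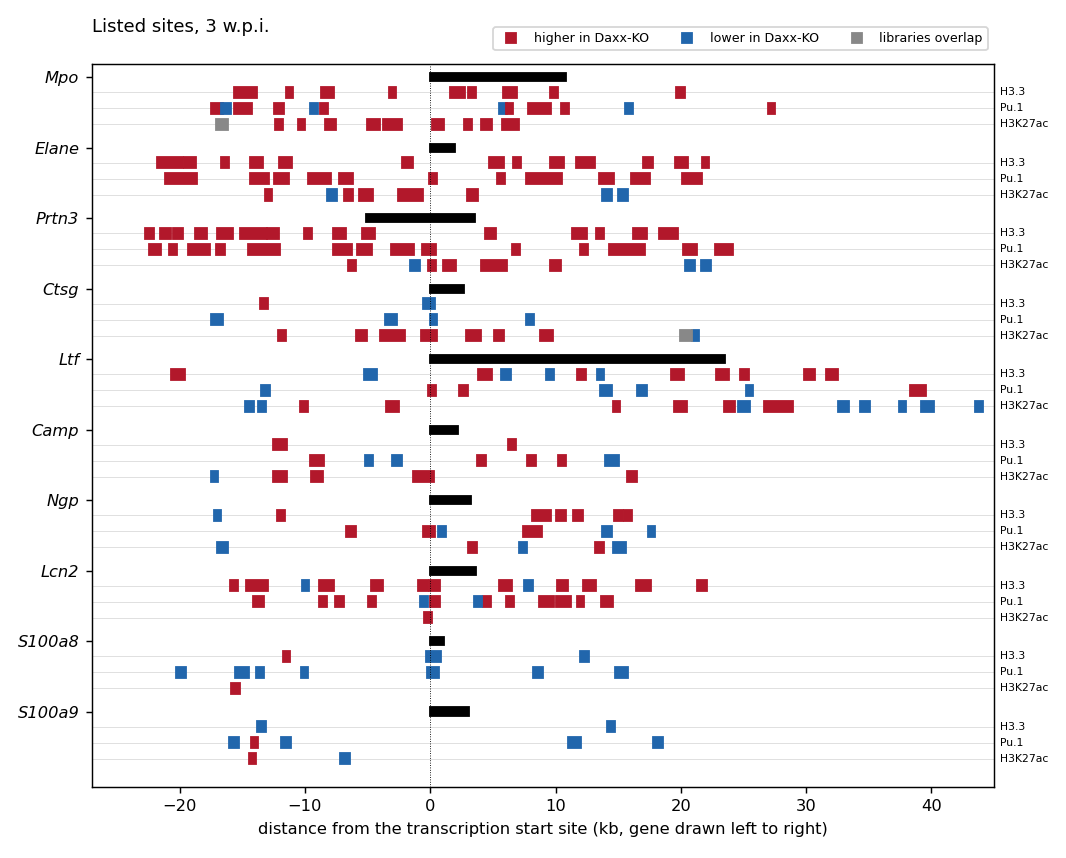
Listed sites around each gene at 3 w.p.i., 1 line per antibody, placed by distance from the transcription start in kb with the gene drawn left to right as a black bar; red sites were higher and blue sites lower in Daxx-KO, and grey sites had overlapping libraries. Sites of H3.3 around Mpo, Elane and Prtn3 are red throughout (9, 13 and 15 sites), and those of Pu.1 around S100a8 are blue throughout (7 sites).

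Pu.1 at 3 w.p.i. differed in direction from locus to locus. It was higher at 45 and lower at 29 of 74 sites, against 55.3% and 42.8% of all listed sites. All 11 sites of Elane and all 14 of Prtn3 were higher in Daxx-KO, counts that share sites because their windows overlap. In contrast, all 4 of Ctsg and all 7 of S100a8 were lower. Most of these sites lay in the flanks: promoters and gene bodies held 1 at Elane, 3 at Prtn3, 1 at Ctsg and 1 at S100a8. Around the 10 genes 34 of the 45 higher and 21 of the 29 lower sites were in the flanks. Of these, 26 and 10 overlapped another coding gene. The Prtn3 promoter site, which holds the GAGGAAGT printed in its sequence, had 91.4 and 110 normalized counts in Daxx-KO against 42.8 and 0 in WT (chr10:79878951-79880050). The Elane site with the same letters (chr10:79886151-79886750) had 47.3 and 44.6 against 20.4 and 32.0. At both starts the groups were separate, by a smaller margin at Elane.

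Of the secondary granule genes, the Ltf start had 60.7 and 60.8 normalized Pu.1 counts in Daxx-KO against 37.1 and 12.8 in WT (chr9:111019101-111019750). The Lcn2 start had 88.2 and 61.6 against 34.5 and 25.6 (chr2:32387501-32388300), and that of Ngp, which lacks GAGGAA in the searched bases, 83.5 and 86.7 against 43.4 and 51.1. Ngp and Lcn2 each had a second promoter site in the opposite direction, at 10.2 and 0.81 against 48.1 and 38.4 at Ngp. In all, promoter sites were called higher at 6 and lower at 4 of the 10 genes, and at 38.5% and 11.6% of coding genes.

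S100a8, whose promoter also holds GAGGAAGT, had less Pu.1 in Daxx-KO, at 30.7 and 40.5 normalized counts against 90.9 and 83.1 in WT (chr3:90668701-90669650). Ctsg had 37.0 and 31.6 against 67.4 and 76.7 (chr14:56102001-56102600). The letters themselves were thus present in sites of either direction: in the middle 600 bases of the site, GAGGAA was found in 24 of 45 Pu.1 sites called higher at the 10 genes (53.3%), in 21 of 29 called lower (72.4%) and in 44.7% of all listed autosomal Pu.1 sites at this time. The depth of the 2 WT libraries again differed, at 33.78 (again the one without an animal number) and 2.75 reads per window, with 11.35 and 11.99 in Daxx-KO, and its part in the result was not tested.

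**Figure D3:**
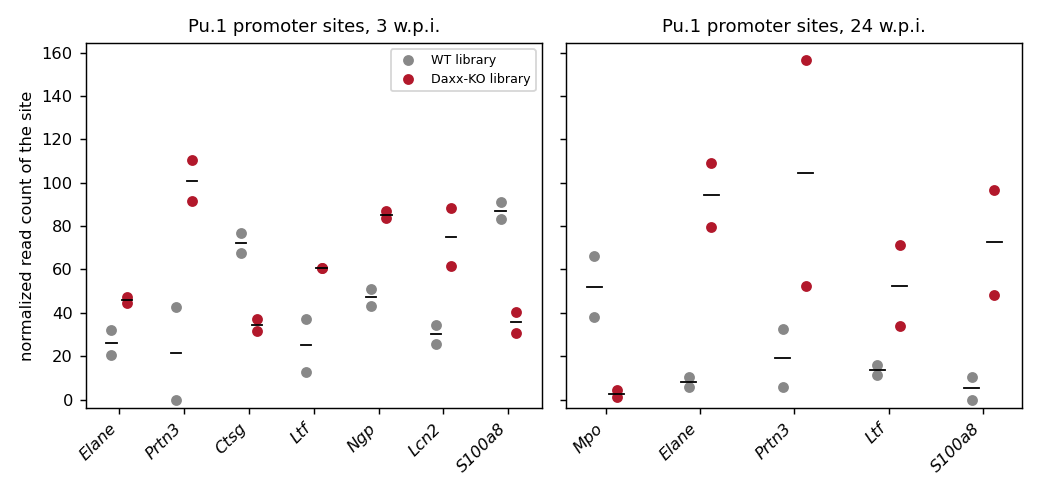
Pu.1 at the promoter sites of the genes with a called site, as the normalized read count of the site (y axis) in each of 2 WT (grey) and 2 Daxx-KO (red) libraries, with a line at each mean; 3 w.p.i. on the left and 24 w.p.i. on the right. At the site nearest the start, Elane, Prtn3 and Ltf are higher in Daxx-KO at both times, while S100a8, plotted at sites that share 100 bp, is lower at 3 w.p.i. (30.7 and 40.5 against 90.9 and 83.1) and higher at 24 w.p.i. (96.8 and 48.1 against 0 and 10.5).

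At 24 w.p.i. sites at or near the starts of Elane, Prtn3 and Ltf again had more Pu.1 in Daxx-KO. Elane had 109 and 79.4 normalized counts against 5.76 and 10.5 in WT, a log2 ratio of 3.38 (chr10:79886101-79887300). Prtn3 had 52.5 and 157 against 5.76 and 32.6 at a site just downstream of its GAGGAAGT (chr10:79879801-79880650), and Ltf 34.1 and 71.0 against 11.5 and 15.8. At internal starts of Ltf a pair of promoter sites was lower, at 2.73 and 7.31 against 37.4 and 45.3 and at 12.95 and 15.7 against 40.3 and 33.7. The 2 Daxx-KO libraries were far apart at Prtn3, yet both lay above WT. Mpo had a promoter site with almost no Pu.1 in Daxx-KO, 1.36 and 4.18 against 66.2 and 37.9 (chr11:87794101-87794800). The S100a8 site at this time lay at the other end of this short gene (chr3:90669551-90670400) from the bases printed, at 96.8 and 48.1 against 0 and 10.5.

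Around the genes, however, Pu.1 at 24 w.p.i. was called higher at 24 and lower at 37 of 61 sites, against 46.9% and 51.3% of all listed sites. A promoter site was called higher at 4 and lower at 2 of the 10 genes, against 25.4% and 32.1% of coding genes, and the median log2 ratio of the strongest promoter site was 2.39 for the 5 genes with one against -1.44 for all genes. The largest losses were at distal sites with no reads in 1 or both Daxx-KO libraries: 0 and 0 against 115 and 43.2 upstream of Ltf (chr9:111008051-111008700), and 2.73 and 0 against 95 and 96.8 upstream of S100a8 (chr3:90660801-90662150). GAGGAA was found in 14 of 24 sites called higher (58.3%), 18 of 37 called lower (48.6%) and 45.9% of all listed autosomal sites.

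H3.3 at 24 w.p.i. was higher at 39 and lower at 28 of 68 sites around the 10 genes, against 51.3% and 47.0% of all listed sites. Promoter sites were called higher at 4 and lower at 3 genes, with Mpo and Ngp in both, against 27.8% and 24.5% of coding genes. The Ctsg promoter, which had less H3.3 at 3 w.p.i., had 174 and 140 normalized counts in Daxx-KO against 38.7 and 3.76 in WT (chr14:56102151-56103300). Lcn2 was higher at its start at both times, here with 51.9 and 28.3 against 6.46 and 0. At Ngp the change alternated over a short distance: 3.31 and 2.26 against 68.3 and 71.5 just upstream of the start (chr9:110418951-110419650), and 116 and 38.5 against 35.1 and 32.0 just downstream of it (chr9:110419651-110420300). The largest H3.3 gain at Ngp was further upstream, at 72.9 and 54.3 against 1.84 and 0 (chr9:110416401-110417400). Camp was lower near its start, at 0 and 22.6 against 60.0 and 62.1. At S100a8 and S100a9 only 2 sites were higher and 7 lower.

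H3K27me3 at 24 w.p.i. was lower in Daxx-KO at most of the sites listed around these genes. Of 48 sites, 11 were called higher and 37 lower, against 40.8% and 56.8% of all listed sites, and promoter sites were lower at 5 genes and higher at 1, against 39.9% and 14.4% of coding genes. The median log2 ratio of the strongest promoter site was -1.92 for the 6 genes with one and -0.97 for all genes. Among primary genes, Prtn3 had 19.1 and 8.28 normalized counts in Daxx-KO against 96.2 and 117 in WT at a downstream start (chr10:79881451-79882350), and the largest Mpo change, in an intron, was 9.57 and 7.36 against 58.8 and 28.6. Each of the 11 secondary gene sites was lower. The Ngp start had 3.99 and 10.1 against 63.5 and 45.7 (chr9:110419051-110420050), inside its broad acetylated site. A promoter site inside Lcn2, downstream of its main start (chr2:32386901-32387650), had 28.7 and 28.5 against 79.4 and 41.4.

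S100a9 was the exception. Its start had more H3K27me3 in Daxx-KO, at 128 and 137 normalized counts against 91.5 and 75.7, although its H3K27ac was also higher there. A promoter site just upstream of the S100a8 start (chr3:90668051-90668800) had less, at 47.9 and 52.4 against 76.6 and 101. Over both genes 8 sites were higher and 5 lower. The groups did not overlap at either promoter site. The largest H3K27me3 gain in both windows lay between the genes (chr3:90688501-90689150), with 27.9 and 37.7 against 11.2 and 8.57.

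H3K9me3 gave few sites. At 3 w.p.i. there was 1, downstream of Ctsg and higher in Daxx-KO (11.6 and 10 normalized counts against 1.75 and 1.16), at a time when 78.5% of all listed H3K9me3 sites were called higher and 21.1% lower. At 8 w.p.i. none was listed around the 10 genes in any of the 3 comparisons. At 24 w.p.i. 15 of 20 sites were higher and 5 lower, against 46.9% and 50.3% of all listed sites. The largest loss was at the 3′ part of Ltf (chr9:111039201-111040950), with 3.19 and 10.4 against 117 and 107. The largest gain within a granule gene was in a Prtn3 intron that also overlaps Plppr3 (chr10:79873951-79875000), with 38.9 and 44.8 against 0 and 0. At Camp the largest gain, downstream of the gene over Nme6, had unequal Daxx-KO libraries, at 47.8 and 240 against 3.11 and 0.

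**Figure D4:**
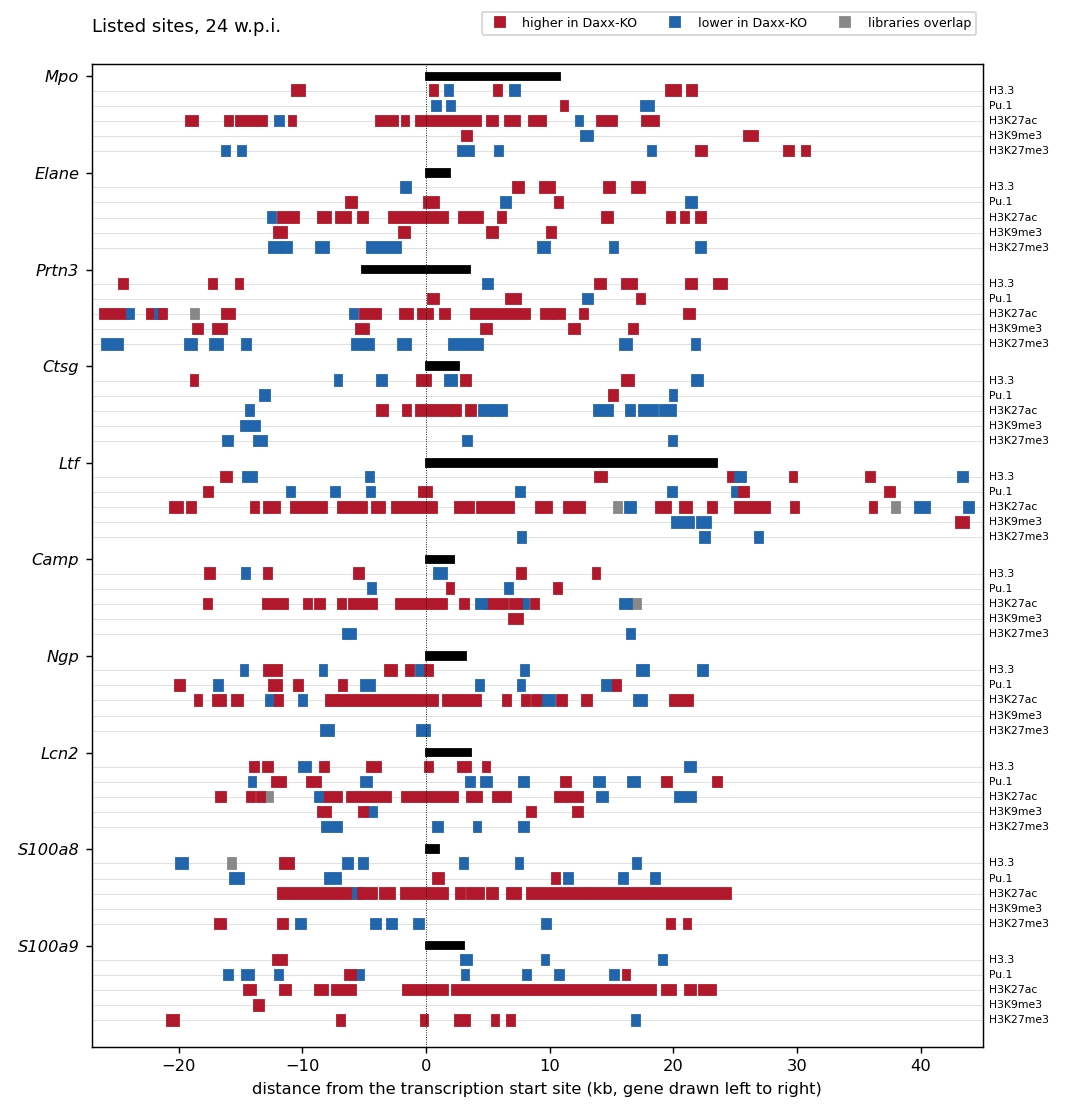
Listed sites around each gene at 24 w.p.i., 1 line per antibody, drawn as for 3 w.p.i. with distance from the transcription start in kb. H3K27ac is higher (red) over all 10 starts, 37 of 48 H3K27me3 sites are lower (blue), and Pu.1 and H3.3 sites of both directions stand side by side.

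At 8 w.p.i. DKO was compared for H3K27me3 and H3K9me3, and only H3K27me3 had listed sites around these genes. DKO against WT gave 9 sites around the 10 genes, 5 higher and 2 lower, against 48.0% and 41.6% of all listed sites. DKO against Daxx-KO gave 11, with 7 higher and 2 lower, against 55.9% and 28.5%. Secondary granule genes had no listed site in either. The Mpo promoter had 3.77, 0 and 1.24 normalized counts in DKO against 33.0, 7.61 and 7.9 in Daxx-KO (chr11:87793201-87793850), so that the groups were separate, with 1 Daxx-KO library well above the others. Upstream of S100a8 (chr3:90647501-90649500), DKO had 47.7, 66.3 and 45.9 against 11.5, 10.9 and 9.21. Downstream of Mpo, over the lactoperoxidase gene Lpo (chr11:87822151-87822950), DKO had 34.0, 45.4 and 43.6 against 14, 18.1 and 21.2 in WT. Within S100a9, an intronic site chosen after its values were seen had 17, 17.5 and 17.4 in DKO against 8.75, 5.43 and 4.47 in WT. At the last 3 sites every DKO library was the higher one, at low counts throughout.

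Set side by side over whole windows, primary and secondary granule genes differed most in acetylation at 3 w.p.i. Of the called sites, 84.0% of those of the primary genes were higher in Daxx-KO (95% Wilson interval 65.3 to 93.6) and 52.0% of those of the secondary genes (33.5 to 70.0). These intervals overlap, cover counting only and treat neighbouring sites as independent, which they are not. The lower sites of the secondary genes all lay in the flanks. In promoters and gene bodies Ltf, Camp, Ngp and Lcn2 had 3, 1, 1 and 1 higher and 0 lower. Mpo, Elane, Prtn3 and Ctsg had 4, 1, 2 and 1 higher there, and only Prtn3 had 1 lower. At 24 w.p.i. the H3K27ac shares over whole windows were 74.5% (60.5 to 84.7) and 81.4% (70.8 to 88.8). For H3.3 they were 96.6% and 79.4% at 3 w.p.i. and 69.6% and 60.0% at 24 w.p.i., and for Pu.1 74.2% and 63.6%, then 41.7% and 44.4%. For H3K27me3 at 24 w.p.i. they were 12.5% (4.34 to 31.0) and 0% (0 to 25.9). In every one of these pairs the intervals of the classes overlapped. Over all listed sites the shares at 3 and 24 w.p.i. were 40.3% and 42.5% for H3K27ac and 59.7% and 52.2% for H3.3. For Pu.1 they were 56.4% and 47.8%, and for H3K27me3 41.8% at 24 w.p.i. The Pu.1 shares of both classes at 24 w.p.i. lay near the share over all sites. S100a8 and S100a9 followed neither class: 10.0% of their Pu.1 sites were higher at 3 w.p.i. (1.79 to 40.4), but 94.1% of their H3K27ac sites were at 24 w.p.i. (73.0 to 99.0).

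**Figure D5:**
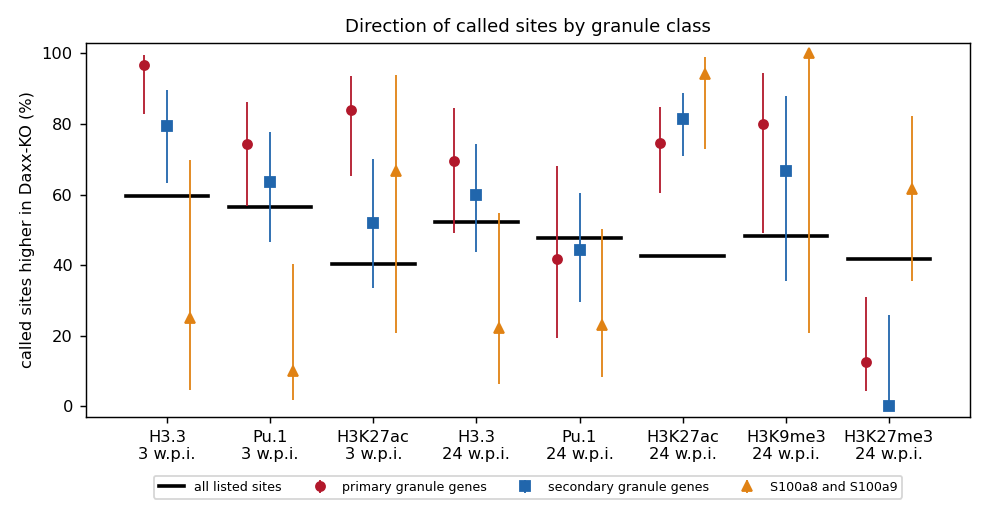
Share of called sites that were higher in Daxx-KO (y axis, percent) for primary genes, secondary genes and S100a8 with S100a9, by antibody and time; bars are 95% Wilson intervals over sites and the black lines give the share over all listed sites. For H3K27ac the windows of the secondary genes move from 52.0% at 3 w.p.i., with all lower sites in the flanks, to 81.4% at 24 w.p.i. For H3K27me3 at 24 w.p.i. both granule classes lie low, at 12.5% and 0%.

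Between 3 and 24 w.p.i., 48 pairs of H3K27ac sites overlapped by at least 1 bp, from different mice. In 32 pairs (66.7%) both were higher and in 2 (4.17%) both lower, where all such pairs of listed sites were both higher in 19% and both lower in 41.6%. The pairs held 77.4% of the called 3-week sites and 32.8% of the 24-week sites. H3.3 gave 27 pairs, 17 of them (63%) higher at both times against 31.4% of all pairs. Pu.1 also gave 27, of which 37% were higher and 29.6% lower at both, against 24% and 23.9% of all pairs. Antibodies on the same mice could be laid over each other. At 3 w.p.i. H3.3 and Pu.1 sites gave 33 pairs, 26 of them (78.8%) higher for both, against 59.7% of all pairs. At 24 w.p.i. H3K27ac and H3K27me3 gave 41, of which 31 (75.6%) had more acetylation and less H3K27me3, as at the Ngp start, against 37.9% of all pairs. Pu.1 and H3K27ac at 24 w.p.i. gave 46 pairs, of which 63% had less Pu.1 with more H3K27ac, as at the Mpo promoter, and 23.9% more of both, as at Elane, against 24.6% and 18.8% of all pairs. Neighbouring pairs are not independent, and none of these differences was tested.

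A wider list of 20 genes of granule proteins and their processing gave a less uniform picture. At 24 w.p.i. 15 of them had an H3K27ac promoter site called higher and 9 one called lower, beside 43.1% and 35.3% of coding genes. At 3 w.p.i. the numbers were 5 and 6, beside 9.18% and 26.2%. Of 6 azurophil genes (Bpi, Lyz2, Prss57, Ctsc, Srgn, Ms4a3), 3 had one called higher and 4 one called lower at 24 w.p.i. Of 12 secondary and tertiary genes (Mmp8, Mmp9, Mmp25, Chil3, Cd177, Hp, Pglyrp1, Olfm4, Cyba, Cybb, Itgam, Itgb2) the numbers were 10 and 4, and of the protease inhibitors Serpinb1a and Slpi 2 and 1. Cybb, on the X chromosome, could have no site at 24 w.p.i., where the sex chromosomes were left out, but is counted in the 12 and the 20. Mmp9, the gelatinase of tertiary granules, had 4769 to 5280 normalized counts in Daxx-KO against 1802 to 2183 in WT. Ctsc, the protease that activates the granule serine proteases, had 199 to 484 against 562 to 566. Around the 20 genes H3K27me3 was higher at 32 and lower at 96 sites at 24 w.p.i., where 40.8% and 56.8% of all listed sites were. At 3 w.p.i. H3.3 was higher at 101 and lower at 40 (58.7% and 39.7% of all listed sites) and Pu.1 at 95 and 56 (55.3% and 42.8%).

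Markers of other cells in the HSPC fraction moved too. Genes were counted by any called H3K27ac promoter site, so 1 gene can count in both directions. Of coding genes, 43.1% had such a site called higher and 35.3% one called lower at 24 w.p.i., and 9.18% and 26.2% at 3 w.p.i. At 24 w.p.i. all 5 stem and progenitor markers (Kit, Cd34, Hlf, Mecom, Meis1) had one called higher in Daxx-KO and 0 one called lower. Sums over the strongest site of each gene were 2229 to 2377 normalized counts against 1009 to 1549 in WT. Of 4 T cell markers (Cd3e, Cd3g, Cd4, Lck), 0 had one called higher and 3 one called lower (170 to 173 against 649 to 803). Of 3 monocyte markers (Csf1r, Ly86, Irf8), 1 had one called higher and 3 one called lower, Irf8 having both (2374 to 3545 against 3036 to 3192). Of 3 megakaryocyte markers (Pf4, Itga2b, Gp9) the numbers were 2 and 1, Gp9 having both (233 to 411 against 166 to 190). At 3 w.p.i. 3 of 5 progenitor markers were higher and none lower (370 to 593 against 171 to 254). For these other lists at that time the numbers higher and lower were 1 and 2 for T cells, Lck having both (5.95 to 14.5 against 60.7 to 61.2). They were 0 and 1 for megakaryocytes (18.7 to 44.6 against 76.1 to 76.3) and 0 and 1 for monocytes (6.8 to 11.6 against 18.3 to 51.9). Their part in the granule gene results was not tested.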

How the data were processed

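CUT&Tag reads were processed by the authors. Per the submitters' processing notes and the file headers, CASAVA 1.8.4, cutadapt 1.13, STAR 2.5.3 and bedtools were used with mm10, and diffReps 1.55.6 scanned 600-bp windows in steps of 50 bp with a negative binomial test at a p-value cutoff of 0.0001. The deposited tables hold, for each site that passed, the count of every library as normalized by the authors. Their columns of group averages, enrichment, direction, fold changes, p-values and windows were not used. The 24 w.p.i. tables leave out the sex chromosomes. One comparison at 8 w.p.i. (H3K27me3, Daxx-KO and WT) was left out because its control columns are H3K9me3 libraries.

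From these values, sites within 20 kb of each gene body were taken and called where the libraries of the groups did not overlap. Log2 ratios are of group means with 1 normalized count added. No test was run, and Wilson 95% intervals cover counting only. Reads recovered with the normalization constants of the headers came out whole only in part, so no count test was made. Full values are given for promoter sites and, in each table, for the site of each gene with the largest log2 ratio and at least 20 normalized counts in the higher group. The members and lists were chosen with earlier results of these data known. Other window sizes, call rules, merging, scaling and left-out libraries were tried. The labels give an animal number for all libraries but the first WT library of H3.3 and of Pu.1 at 3 w.p.i. Python 3.11.15, numpy 2.4.6, pandas 2.3.3 and scipy 1.17.1 were used, and the scripts were tested on simulated data. Some cell type marker lists are not reported here.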

Additional observations from a re-analysis of the deposited data

Results flagged for a closer look

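At 3 places a site over a promoter and a site at the other time that overlapped at least 50% of the shorter one were called in opposite directions at 3 and at 24 w.p.i. The difference between the times was not tested. Outside promoters 17 pairs did the same, and the Pu.1 sites of S100a8, which share 100 bp, were opposite too (-1.26 and 3.55). The H3.3 promoter site of Mpo had a log2 ratio (Daxx-KO over WT) of 1.61 at 3 w.p.i. and of -2.64 at an overlapping site at 24 w.p.i., where it had 4.42 and 4.53 normalized counts in Daxx-KO against 34.1 and 32.0 in WT. The H3.3 promoter site of Ctsg went from -2.89 to 2.83, with 0 and 13.3 against 61.7 and 49.8 at the earlier time and 174 and 140 against 38.7 and 3.76 at the later. The H3K27ac promoter site of Prtn3 at 3 w.p.i. had -1.84 and the overlapping site at 24 w.p.i., which lies in an intron and over no promoter, 0.62, with 9.69 and 6.8 against 26.9 and 37.5 and then 420 and 618 against 362 and 312. The mice differed between the times, and so did the depth. No group had 4 or more libraries, so single libraries were not searched for outliers.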

How the results depend on the processing

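No log2 ratio of a promoter site changed sign under another scaling, but over all 10 genes the share of called sites that were higher fell to or below 50% in 3 cases: H3K27me3 in DKO against Daxx-KO (77.8% to 0%) and H3K9me3 at 24 w.p.i. (75% to 50%) with gene bodies only, and H3.3 at 24 w.p.i. (58.2% to 50%) with 50 kb flanks. Within the primary or secondary genes alone it also crossed or reached 50% in several settings with few sites. The share of called sites that were higher kept within its interval in 117 of the 133 recalculations over all 10 genes, and in the other 16 it moved. With gene bodies only, it became 66.7% for H3.3 at 3 w.p.i., 92.9% for H3K27ac at 3 w.p.i., 96.8% for H3K27ac and 50% for H3K9me3 at 24 w.p.i., and, on 1 site each, 100% for H3K27me3 in DKO against WT and 0% in DKO against Daxx-KO. With 5 kb flanks it became 88.5% for H3K27ac at 3 w.p.i., 90.6% for H3K27ac and 26.9% for Pu.1 at 24 w.p.i., and 100% for H3K27me3 in DKO against WT. With 50 kb flanks, H3K27ac fell to 53.3% at 3 and 70.9% at 24 w.p.i. With at least 20 counts required it became 80.6% for H3K27ac at 3 w.p.i. and 100% for H3K27me3 in DKO against WT. Merging sites of 1 direction within 1 kb gave 67.6% for H3K27ac at 24 w.p.i., since long runs of higher sites became single ones, and scaling by mean reads gave 86.5%. The cause of the other moves was not tested. Scaling moved the median log2 ratio of all sites by 0.54 (H3K27ac) and 0.32 (H3K27me3) at 24 w.p.i., and by 0.47 (H3.3), 0.37 (Pu.1) and 0.21 (H3K27ac) at 3 w.p.i. Leaving out 1 library in turn moved no share, which the call rule favours, since sites already separate stay so. No paired analysis was possible because no test was made, and numbers shared by libraries of different groups in the labels only name mice.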
